A study of Mus musculus with 4 samples.

Results

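Small leucine-rich proteoglycans are short secreted proteins built around leucine-rich repeats that sit on collagen fibrils. The 9 members described here were decorin (Dcn, ENSMUSG00000019929), biglycan (Bgn, ENSMUSG00000031375), asporin (Aspn, ENSMUSG00000021388), lumican (Lum, ENSMUSG00000036446), fibromodulin (Fmod, ENSMUSG00000041559), Prelp (ENSMUSG00000041577), osteomodulin (Omd, ENSMUSG00000048368), osteoglycin (Ogn, ENSMUSG00000021390) and podocan (Podn, ENSMUSG00000028600). They were chosen by name from the 31053 genes listed in the count matrices, and all 9 were detected. Carotid arteries of male C57BL/6 mice, aged 11 weeks before injury and with no engineered allele named in the labels, were analysed by droplet single-cell RNA-sequencing, uninjured at day 0 and wire-injured at the 3 later times of days 3, 7 and 14. The injury, made with a wire moved inside the artery, removes the endothelium and, as the study describes it, also disrupts the internal elastic lamina. The methods text says that vessels of several mice were pooled for each library, each injured vessel came from its own mouse, thrombosed vessels were left out, and the tissue was digested enzymatically with removal of dead cells. There was 1 library per time point, so a difference between days and a difference between libraries cannot be told apart, no test was possible, and intervals, all at 95%, account for counting error alone.

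In the vessel wall these proteins are made chiefly by fibroblasts of the adventitia and by smooth muscle cells. Dcn, Bgn and Aspn form class I of the family, Lum, Fmod, Prelp and Omd class II, Ogn belongs to class III and Podn to class V. Most carry chondroitin, dermatan or keratan sulfate chains, they set the spacing and thickness of collagen fibrils, and several of them bind transforming growth factor-β. Because 3′ ends were counted with unique molecular identifiers (UMIs), 1 molecule gives at most 1 count whatever its length, and levels are given in CPM, the gene's UMIs divided by all UMIs of the same cells and scaled to a total of 1000000, with no scaling by length.

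After filtering, 281, 1405, 2693 and 1029 cells of days 0, 3, 7 and 14 remained, and a median cell held 7959, 5458, 6317 and 10764 UMIs. The libraries of days 0 and 3 shared 152 cell barcodes and those of days 7 and 14 shared 64, whereas days 3 and 7 shared 1 and the other pairs shared 0. Of the 152, 104 were deeper in day 0, by a median ratio of 21.5 in UMIs, and 48 were deeper in day 3, by a ratio of 109. Of the 64, 62 were deeper in day 7, by a ratio of 89.6. Among the copies deeper in day 0, 97 pairs had a named class in both libraries, the class was the same in 97, and 93 of the day 3 copies were fibroblast-like. For the copies deeper in day 3 the class was the same in 7 of 11 such pairs, and for those deeper in day 7 in 17 of 19. The 214 shallower copies (48 of day 0, 104 of day 3 and 62 of day 14) were removed for their lower depth, a choice made after the data were seen. With these copies kept, the median log2 ratio of the 9 members in fibroblast-like cells at day 3 against day 0 was -1.28 in place of -1.34, and with both copies of each shared barcode left out it was -1.07.

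Fibroblast-like cells were clusters named from Pdgfra, Serpinf1, Dpt and other markers, and the members were not among the genes used for clustering. They numbered 231, 110, 164 and 484 on days 0, 3, 7 and 14. These markers were present on every day, with Pdgfra at 474, 403, 193 and 253 CPM, Serpinf1 at 2674, 681, 1139 and 2086 CPM and Dpt at 1849, 726, 1172 and 1903 CPM, while the smooth muscle myosin Myh11 and the leukocyte gene Ptprc reached at most 4.51 and 11.4 CPM. The 12 monocyte/macrophage markers summed to 5.40, 58.0, 83.3 and 26.6 CPM in fibroblast-like cells on days 0, 3, 7 and 14. The cell cycle gene Mki67 stood at 0, 33.8, 10.8 and 1.01 CPM. The 9 smooth muscle markers together summed to 503, 441, 1112 and 520 CPM in these cells, with 1 of the 9 at 0 UMIs at day 0 and none on the later days, and Acta2 among them stood at 207, 284, 558 and 181 CPM. The mural cell gene Rgs5 stood at 19.8, 64.2, 322 and 76.1 CPM, against 91.6, 16.3, 82.7 and 230 CPM in smooth muscle-like cells, and on days 3 and 7 it was higher in the cells named fibroblast-like. The summed level of the 9 fibroblast markers was nevertheless uneven, at 13408, 4653, 7034 and 10469 CPM, and it was lowest at day 3. Median UMI counts of these cells were 8400, 37448.5, 28273 and 18959.5. Cells with over 40000 UMIs numbered 0, 53, 46 and 3 and carried 0, 80.3, 53.8 and 1.73% of the fibroblast-like UMIs. The part of marker level and cell depth in the results below was not tested, and values without the deep cells are given where they end a call, turn a direction or move a value much.

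At day 0, Dcn was the most abundant member in fibroblast-like cells, followed in order by Bgn, Lum, Ogn, Prelp, Fmod, Aspn, Omd and Podn, and no 2 neighbours in this order had overlapping intervals. Summed over the 9 members, the level was 22378, 10581, 16444 and 21953 CPM on days 0, 3, 7 and 14. Dcn alone held 63.9, 53.5, 42.8 and 59.3% of the family's UMIs on these days. Bgn moved the opposite way in this composition, with 13.1, 23.3, 30.3 and 12.0%. Aspn moved from the seventh to the fourth place by day 7 and held 6.36% of the family's UMIs on that day and 6.95% at day 14, against 0.93% before injury. By day 14 Lum stood above Bgn and Aspn above Ogn, while the intervals of Podn and Omd overlapped. At day 3 the intervals of Ogn and Prelp overlapped.

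Counted by a fixed size rule, 6 of the 9 members were at least 2-fold lower at day 3 than at day 0 and 0 were at least 2-fold higher, where among the 10883 genes with at least 20 UMIs in these sums 10.7% were that much lower and 10.4% that much higher. The 6 were Dcn, Fmod, Prelp, Omd, Ogn and Podn. The median log2 ratio was -1.34 over the members and -0.09 over all those genes. At day 7, 5 members were at least 2-fold lower and 1 was higher (8.3% and 10.4% of 10992 genes), with a median of -1.02 against -0.05 for all genes. The 5 were the same less Prelp, and the higher one was Aspn. At day 14, 1 was lower and 1 higher (4.54% and 9.31% of 11627 genes), namely Omd and Aspn, with a median of -0.16 against -0.03. These comparisons share the day 0 library. Without the cells of over 40000 UMIs, the median at day 3 was -0.45 with 4 members at least 2-fold lower, where Prelp and Podn, both at -0.45 on the log2 scale, were no longer counted. In the same setting 3 members were at least 2-fold lower at day 7, where Dcn (-0.95) and Podn (-0.87) were no longer counted, and the counts of day 14 were as before. After thinning of every cell to 1000 UMIs the day 3 median was -0.66, with 4 members lower. Without the cells of over 40000 UMIs, and also after thinning, the median was lower at day 7 than at day 3.

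**Figure D1:**
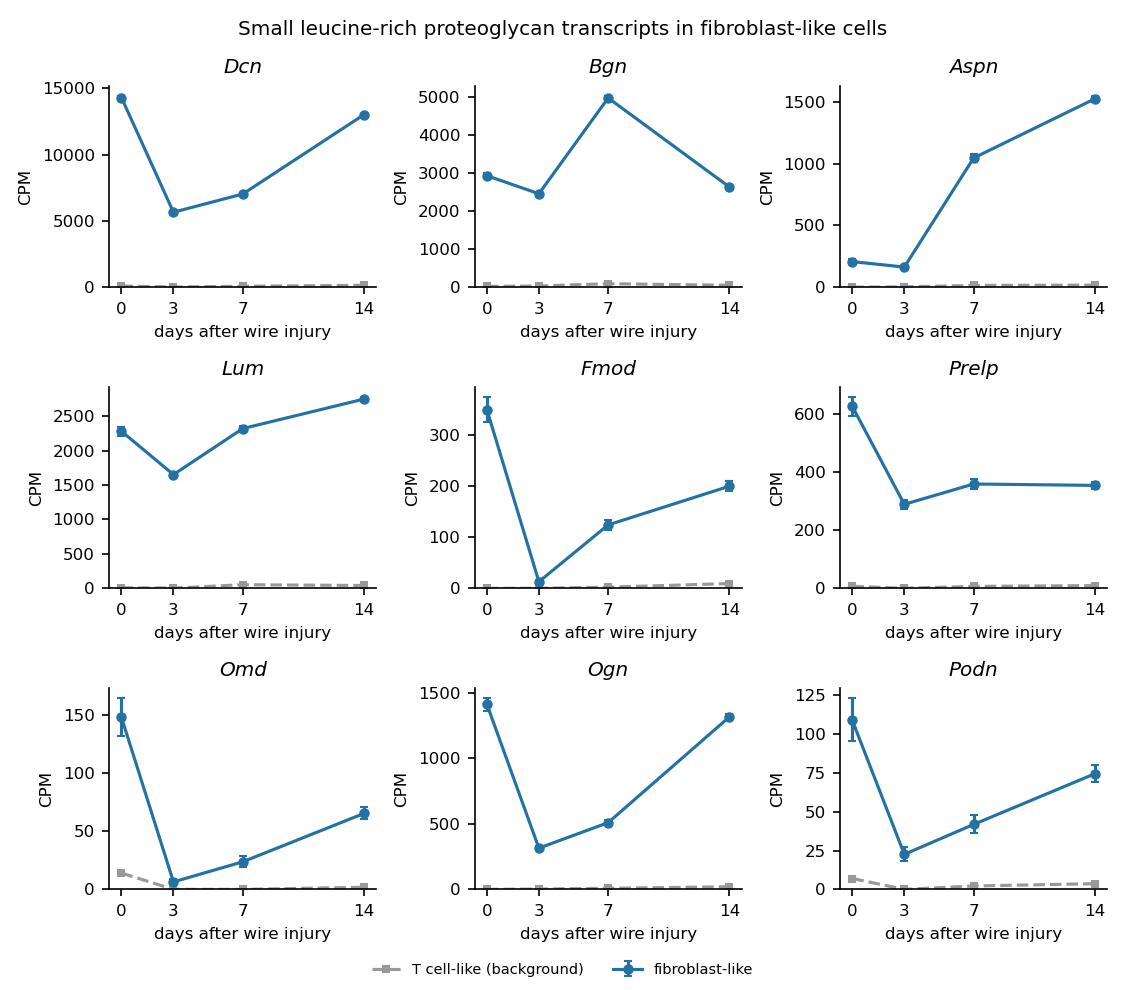
CPM (vertical axes, each starting at 0) of the 9 members in fibroblast-like cells against days after wire injury, with exact Poisson 95% intervals as bars (often smaller than the point) and T cell-like cells as a background line. Dcn, Fmod, Prelp, Omd, Ogn and Podn were lowest at day 3, Bgn was highest at day 7 and Aspn at day 14.

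Among the class I members, Dcn, which binds collagen fibrils and transforming growth factor-β, stood at 14306 CPM before injury (interval 14149 to 14464), 5658 on day 3 (5589 to 5728), 7032 on day 7 (6957 to 7108) and 13026 on day 14 (12951 to 13102). Days 0 and 14 were high and days 3 and 7 low, and no 2 intervals overlapped. Days 3, 7 and 14 were at 0.396, 0.492 and 0.911 of the uninjured level, or at -1.34, -1.02 and -0.14 on the log2 scale. Without the deep cells days 3 and 7 were at -1.03 and -0.95. The share of fibroblast-like cells with a Dcn UMI after thinning to 1000 UMIs was 100, 96.3, 95.1 and 99.6%, a share too near its maximum to order the days. The same share in T cell-like cells of the same libraries, taken as background, was 16.7, 1.56, 8.79 and 25.3%.

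Bgn, the proteoglycan most like Dcn in sequence class and a ligand of toll-like receptors, followed another course. It stood at 2938 CPM (2867 to 3010), 2462 (2416 to 2508), 4985 (4922 to 5049) and 2638 (2604 to 2672) on days 0, 3, 7 and 14. Day 7 was the single high value, 1.70 times day 0 (1.65 to 1.74), and day 14 was at 0.529 of day 7 (0.520 to 0.539). The summed smooth muscle markers and Rgs5 of these cells were also highest at day 7, and their part in the Bgn level was not tested. The small day 3 decrease, -0.26 on the log2 scale, changed sign to 0.15 without the deep cells, to 0.20 when cells were weighted equally and to 0.053 without any shared barcode.

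Aspn, which carries no sulfated chain and binds collagen, was the member with the largest increase. Levels were 207 CPM (189 to 227) and 163 (151 to 175) on days 0 and 3 but 1047 (1018 to 1076) and 1527 (1501 to 1553) on days 7 and 14. Days 0 and 3 were low and days 7 and 14 high, with no overlap between them. The day 7 level was 5.05 times the uninjured one (4.59 to 5.57) and the day 14 level 7.36 times (6.71 to 8.10). Without the deep cells the log2 ratios to day 0 at days 7 and 14 were 2.26 and 2.86, against 2.34 and 2.88 with them. After thinning, 21.2, 18.3, 46.0 and 48.7% of the cells had an Aspn UMI. The step from day 7 to day 14, 1.46-fold, was 0.54 on the log2 scale but -0.012 with each library clustered on its own and -0.0059 with no doublets removed, the cause of which was not tested.

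Among the class II members, Lum, a keratan sulfate proteoglycan of cornea and vessel wall, stood at 2282 CPM (2220 to 2346), 1653 (1615 to 1690), 2322 (2279 to 2366) and 2751 (2717 to 2786) on days 0, 3, 7 and 14. Days 0 and 7 overlapped, day 3 was the lowest and day 14 the highest. The ratio to day 0 at day 3 was 0.724, and this direction turned without the deep cells (0.18 on the log2 scale) and with both copies of shared barcodes left out (0.091).

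Fmod, which binds type I collagen and is best known from tendon, had the lowest day 3 ratio of all members when all cells were counted. Its UMIs in fibroblast-like cells numbered 777, 58, 587 and 1772, which gave 349 CPM (325 to 375), 12.8 (9.74 to 16.6), 124 (114 to 134) and 200 (191 to 209) in the same order. All 4 days were separate, with day 3 at 0.0367 of day 0 (-4.77 on the log2 scale, -5.18 to -4.38). At day 14 the level was still at 0.572 of that before injury (0.525 to 0.623). The share of thinned cells with a UMI followed the sums, at 23.6, 1.83, 8.59 and 12.6%, and in T cell-like cells it lay between 0 and 2.20%. The day 3 value without the deep cells was -3.11, and in that setting Omd was lower than Fmod. With the deep cells the day 3 intervals of Fmod and Omd overlapped.

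Omd, known from bone, showed the same order of days. Its levels were 147 CPM (132 to 164), 6.42 (4.30 to 9.21), 23.7 (19.5 to 28.5) and 65.1 (59.9 to 70.7), resting on 328, 29, 112 and 578 UMIs. Ratios to day 0 were 0.0435, 0.160 and 0.442 on days 3, 7 and 14, which without the deep cells were -3.23, -2.33 and -1.16 on the log2 scale in place of -4.52, -2.64 and -1.18. Omd was the 1 member still at least 2-fold lower at the last time point. Thinned to 1000 UMIs the day 14 value was -0.99 in place of -1.18 on the log2 scale, just short of that limit.

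Prelp, which links basement membrane to collagen, followed neither course. It stood at 625 CPM (593 to 659) before injury and at 289 (273 to 305), 359 (342 to 376) and 354 (342 to 367) on days 3, 7 and 14. Its day 3 log2 ratio to day 0 was -1.11, and -0.45 without the deep cells. The value before injury was the single high one, and days 7 and 14 overlapped, with a ratio of 0.987 (0.930 to 1.05) between them.

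The class III member Ogn, a modulator of fibril assembly, stood at 1413 CPM (1364 to 1464), 315 (299 to 332), 510 (490 to 531) and 1318 (1294 to 1342) on days 0, 3, 7 and 14. Its ratio to day 0 was 0.223 at day 3 (-2.16 on the log2 scale, or -1.62 without the deep cells) and 0.932 at day 14, and the share of thinned cells with a UMI went from 66.3% to 24.8% and, by day 14, 61.3%. The class V member Podn, a collagen-binding protein, was the scarcest before injury, at 109 CPM (95.5 to 123), and stood at 22.6 (18.4 to 27.4), 41.8 (36.2 to 48.1) and 74.5 (68.9 to 80.4) CPM afterwards. Its day 3 log2 ratio was -2.27 with the deep cells and -0.45 without them, and the thinned shares, 7.69, 7.34, 4.29 and 8.40%, were too close together to order the days. Without the deep cells Podn was lower at day 7 than at day 3.

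From day 7 to day 14, 2 members were at least 2-fold higher and 0 lower (6.69% and 5.06% of 11938 genes), namely Omd at 2.75-fold (2.24 to 3.40) and Ogn at 2.58-fold (2.47 to 2.70). Dcn at 1.85-fold, Podn at 1.78-fold and Fmod at 1.61-fold stayed under the limit. The median log2 ratio of the family was 0.69 over this interval against 0.03 for all genes. From day 3 to day 7, 4 members were at least 2-fold higher and 0 lower (6.61% and 4.31% of 11341 genes): Fmod by 9.67-fold (7.37 to 12.9), Aspn by 6.43-fold (5.95 to 6.95), Omd by 3.69-fold (2.43 to 5.76) and Bgn by 2.03-fold (1.98 to 2.07). Without the deep cells the Omd values of days 3 and 7, given above, were less than 2-fold apart. Bgn lay just past the limit, and its day 3 level was higher without the deep cells.

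**Figure D2:**
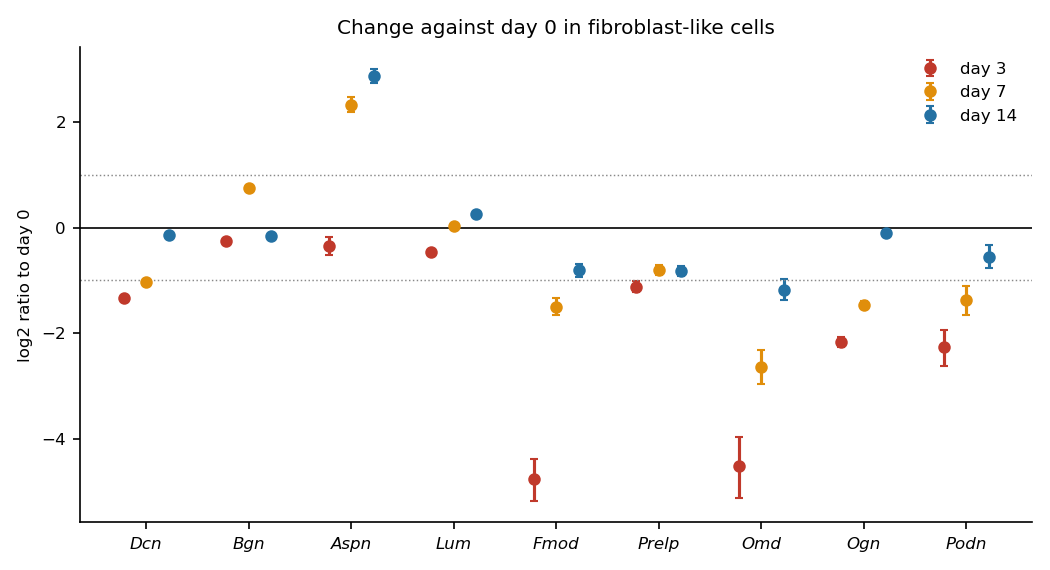
Log2 ratio to day 0 (vertical axis) of each member (horizontal axis) in fibroblast-like cells on days 3, 7 and 14, with 95% counting intervals as bars and dotted lines at 2-fold. Fmod and Omd lay lowest at day 3, near -4.77 and -4.52, and Aspn alone lay above the upper line, at 2.34 on day 7 and 2.88 on day 14.

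Because clusters follow many genes, Dcn and Lum were also measured in fibroblasts gated cell by cell. Cells with a UMI of at least 2 of Pdgfra, Serpinf1 and Dpt and none of Ptprc numbered 214, 115, 167 and 496 on days 0, 3, 7 and 14, of which 214, 93, 127 and 460 were also fibroblast-like by cluster. In the gate, Dcn stood at 14460, 5059, 6431 and 12534 CPM and Lum at 2283, 1512, 2334 and 2692 CPM. Ratios to day 0 were 0.350, 0.445 and 0.867 for Dcn and 0.662, 1.02 and 1.18 for Lum on days 3, 7 and 14. The order of days was the same as by cluster for both genes. Over the whole family in the gate, 6, 5 and 1 members were at least 2-fold lower than at day 0 on days 3, 7 and 14 (10.6%, 7.85% and 4.41% of all genes), and 0, 1 and 1 were at least 2-fold higher (12.1%, 12.1% and 10.1%).

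In single fibroblast-like cells thinned to 1000 UMIs, the median number of members with a UMI was 4, 3, 4 and 4 on days 0, 3, 7 and 14. Cells with at least 4 members made up 65.9, 41.3, 62.6 and 76.7%. The median number of family UMIs per thinned cell was 21, 11, 17 and 20, and 0.613% of the day 7 cells and none of the thinned cells of the other days lacked every member. Fewer family UMIs per cell leave fewer members with a UMI, so the breadth is no separate result beside the sum. The thinning left out 23, 1, 1 and 8 fibroblast-like cells on days 0, 3, 7 and 14.

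Several members are neighbours in the mouse genome. In RefSeq's annotation of GRCm38.p6, Aspn, Omd and Ogn follow each other on chromosome 13 after Ecm2, Prelp and Fmod are adjacent on chromosome 1, and Dcn and Lum are adjacent on chromosome 10, whereas Bgn on X and Podn on chromosome 4 have no neighbour of the family. The build of the deposited counts is not given in the sources used here in a usable form, so these positions belong to the reference table alone. Against day 0, the 3 chromosome 13 neighbours stood at -0.35 (Aspn), -4.52 (Omd) and -2.16 (Ogn) on the log2 scale at day 3 and at 2.88, -1.18 and -0.10 at day 14. Omd and Ogn thus had the same order of days, highest at day 0 and then days 14, 7 and 3, while Aspn had another. That order was not particular to neighbours, since Dcn, Fmod and Podn on other chromosomes had it, as did the summed fibroblast markers. Fmod and Prelp, on opposite strands, stood at -4.77 and -1.11 at day 3, and Dcn and Lum at -1.34 and -0.47. The Aspn, Omd and Ogn genes lie inside the span of Cenpp, for which 0, 16, 4 and 10 UMIs were counted in fibroblast-like cells on days 0, 3, 7 and 14.

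The 250 bases before the start of these neighbours are shown because the genes lie side by side and differed in the size or, for Aspn, the order of their changes. The windows are chr13:49544193-49544442 (plus strand) for Aspn, chr13:49582212-49582461 (plus) for Omd, chr13:49607765-49608014 (plus) for Ogn, chr1:134037004-134037253 (plus) for Fmod and chr1:133921402-133921651 (minus) for Prelp, from RefSeq on GRCm38.p6, written 5′ to 3′ on the gene's strand. Capitals mark matches, on either strand, to the 5 motifs searched, which were the TATA box TATAAA, the CCAAT box, the AP-1 element TGACTCA, the Smad element CAGAC and the TEAD element GGAATG.
Aspn: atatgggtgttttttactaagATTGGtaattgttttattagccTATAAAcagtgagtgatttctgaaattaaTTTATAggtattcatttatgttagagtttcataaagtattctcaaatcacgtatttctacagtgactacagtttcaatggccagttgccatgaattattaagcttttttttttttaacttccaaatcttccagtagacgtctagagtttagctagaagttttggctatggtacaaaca
Omd: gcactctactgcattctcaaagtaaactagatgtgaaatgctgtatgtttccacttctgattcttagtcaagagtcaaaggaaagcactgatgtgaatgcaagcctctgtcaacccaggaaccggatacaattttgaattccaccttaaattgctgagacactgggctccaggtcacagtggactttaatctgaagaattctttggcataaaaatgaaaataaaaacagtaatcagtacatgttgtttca
Ogn: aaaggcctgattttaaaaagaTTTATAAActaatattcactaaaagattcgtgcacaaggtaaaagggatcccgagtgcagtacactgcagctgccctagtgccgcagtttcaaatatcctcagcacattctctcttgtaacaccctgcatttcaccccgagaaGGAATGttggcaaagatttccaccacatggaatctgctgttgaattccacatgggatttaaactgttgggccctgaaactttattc
Fmod: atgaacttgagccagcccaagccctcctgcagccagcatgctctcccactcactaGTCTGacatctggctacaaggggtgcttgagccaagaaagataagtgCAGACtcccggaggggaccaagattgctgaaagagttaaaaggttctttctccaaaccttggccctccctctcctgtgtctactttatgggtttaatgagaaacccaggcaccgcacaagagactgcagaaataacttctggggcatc
Prelp: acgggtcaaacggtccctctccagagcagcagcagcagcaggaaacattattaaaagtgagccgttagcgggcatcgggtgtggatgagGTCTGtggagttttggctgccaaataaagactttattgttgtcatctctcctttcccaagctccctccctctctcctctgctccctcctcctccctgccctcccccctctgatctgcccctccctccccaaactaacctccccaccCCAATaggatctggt

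The Aspn window held 2 matches to TATAAA, 207 and 178 bases before the start, and 1 to CCAAT, and 30.0% of its bases were G or C. The Omd window held none of the 5 motifs (38.4% G or C). The Ogn window held 2 overlapping TATAAA matches, at 229 and 227 bases, and 1 match to GGAATG at 86 bases (42.0%). The Fmod window held 2 matches to CAGAC (51.2%), and the Prelp window 1 to CAGAC and 1 to CCAAT (55.6%). Among 32851 such windows of 250 bases, 12.4% held TATAAA, 33.8% CCAAT, 4.46% TGACTCA, 42.2% CAGAC and 12.6% GGAATG, and a match is a description of the letters only. The Bgn and Podn windows held none of the 5 motifs and had G or C contents of 64.4% and, at the 2 Podn starts, 78.0% and 64.0%.

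Smooth muscle-like cells numbered 11, 107, 68 and 77 on days 0, 3, 7 and 14. They carried Myh11 at 5375, 1224, 1434 and 3857 CPM. Their family total was 4999, 4450, 8197 and 6974 CPM, and Bgn led it on every day, at 2677 CPM (2364 to 3021), 3349 (3285 to 3415), 4572 (4467 to 4678) and 4157 (4048 to 4267). Day 0 was the lowest and day 7 the highest, but the log2 ratio of day 14 to day 7, -0.14, turned to 0.065 with barcode copies kept, 0.12 with no doublets removed and 0.32 with the stricter filter. Ogn stood at 1588 CPM (1349 to 1858), 234 (217 to 252), 303 (276 to 331) and 788 (742 to 837) on days 0, 3, 7 and 14. Day 3 was therefore the low point in these cells too, although the day 0 sum rests on 11 cells, 9 of them with an Ogn UMI. Prelp stood at 428, 191, 355 and 429 CPM, again lowest at day 3.

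From day 3 to day 14, 6 of the 8 members with enough UMIs were at least 2-fold higher and 0 lower in smooth muscle-like cells (6.1% and 9.89% of 10270 genes), with a median log2 ratio of 1.46 against -0.05 for all genes. The 6 were Aspn, Lum, Prelp, Omd, Ogn and Podn, and for Aspn the direction turned without the deep cells, to -0.69 on the log2 scale. The Podn ratio, 2.17-fold (1.05 to 4.46), rested on 18 and 17 UMIs. In the narrower set described below Podn went from 7.29 to 12.6 CPM, under the 2-fold limit. Aspn went from 103 to 65.5 CPM there, and Dcn, from 41.0 to 258 CPM, passed the limit. Ogn was higher by 3.37-fold (3.06 to 3.71), Prelp by 2.25-fold (2.00 to 2.53) and Bgn by 1.24-fold (1.20 to 1.28). From day 7 to day 14, 3 members were at least 2-fold higher and 1 lower (4.17% and 9.6% of 9592 genes), with a median of 0.25. That median was the value of Fmod, on 15 and 15 UMIs, with an interval of -0.89 to 1.38 on the log2 scale. The higher ones were Aspn, Omd and Ogn and the lower one was Lum. For Aspn the direction turned in the narrower set described next, to -0.51 on the log2 scale, and for Lum it turned without the deep cells, from -1.32 to 0.060. In the narrower set Ogn stood at 483 and 805 CPM on days 7 and 14, under the 2-fold limit. Omd, at 8.99 and 18.1 CPM, still passed it there. Of the members with at least 20 UMIs there, Bgn, Aspn, Lum, Prelp and Podn were lower at day 14. Dcn, Omd and Ogn were higher, so the median in that set was negative. The members that are strong in fibroblasts, however, sat in few cells: the 5 cells with most UMIs of the gene carried 96.7, 81.9 and 84.0% of the Dcn UMIs on days 3, 7 and 14, 91.1, 63.0 and 75.5% of the Lum UMIs, and 83.2% of the Aspn UMIs at day 14. For Bgn the corresponding shares were 16.4, 27.2 and 20.7%. The summed fibroblast markers in these cells stood at 407, 454, 509 and 995 CPM, and their part in the Dcn, Lum and Aspn values was not tested.

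A narrower set, the sub-cluster led by Myh11, Itga8 and Tagln, held 11, 80, 53 and 72 of these cells, with fibroblast markers summing to 407, 247, 294 and 554 CPM. There Bgn stood at 2677, 3534, 5411 and 4276 CPM, Ogn at 1588, 297, 483 and 805 CPM and Prelp at 428, 215, 473 and 444 CPM, in the same order of days as in the whole class except that Prelp was highest at day 7. Lum had 0 UMIs in the 11 cells of day 0, where 3 UMIs, taken as the floor for a count of 0, would be 30.5 CPM, and stood at 35.1 (27.7 to 43.8), 1363 (1287 to 1441) and 647 (603 to 693) CPM on days 3, 7 and 14. Lum UMIs were seen in 19 of 80, 23 of 53 and 37 of 72 cells, and 5 cells held 72.7, 77.8 and 81.3% of them. Dcn stood at 61.1, 41.0, 247 and 258 CPM, and days 7 and 14 lay above day 3 with no overlap of intervals. On days 3, 7 and 14, 5 cells held 82.2, 75.5 and 68.8% of these Dcn UMIs, and T cell-like cells, the background, stood at 15.6, 70.4 and 144 CPM. Aspn, so much higher in fibroblast-like cells after injury, stood at 173, 103, 93.2 and 65.5 CPM.

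**Figure D3:**
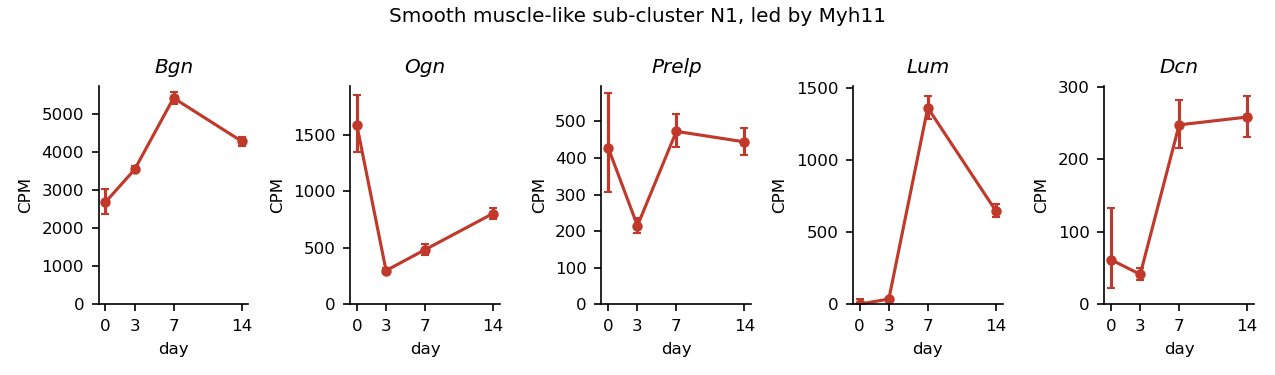
CPM (vertical axes, each starting at 0) of Bgn, Ogn, Prelp, Lum and Dcn by day in the smooth muscle-like sub-cluster led by Myh11 (N1), with exact Poisson 95% intervals as bars. Ogn was lowest at day 3 and Bgn and Lum were highest at day 7, while day 0 rests on 11 cells and has the widest bars for all but Lum.

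Set side by side within a library, fibroblast-like cells exceeded smooth muscle-like cells in Dcn on every day, by 234-fold before injury (108 to 638, on 6 smooth muscle-like UMIs) and by 14.3-fold, 7.06-fold and 23.8-fold on days 3, 7 and 14. The denominators of the later ratios rest on few cells, since 5 smooth muscle-like cells carried 96.7, 81.9 and 84.0% of the Dcn UMIs. In the Myh11-led sub-cluster Dcn stood at 41.0, 247 and 258 CPM, against 5658, 7032 and 13026 CPM in fibroblast-like cells. Fmod was higher by 13.1-fold (4.27 to 65.5), 13.1-fold (7.88 to 23.6) and 17.8-fold (10.8 to 31.9) on days 3, 7 and 14 and had 0 UMIs in the smooth muscle-like cells of day 0. On day 7 the excess of Fmod and Aspn over the whole smooth muscle-like class was above that of Dcn. Against the Myh11-led sub-cluster, with Aspn at 93.2 and Dcn at 247 CPM on that day, this order turned for Aspn. The Aspn excess over the whole class was 1.20-fold, 2.08-fold, 12.8-fold and 5.80-fold on the 4 days. At day 14, 5 smooth muscle-like cells carried 83.2% of the Aspn UMIs. In the Myh11-led sub-cluster Aspn stood at 103, 93.2 and 65.5 CPM on days 3, 7 and 14. Against that sub-cluster the Aspn excess was larger at day 14 than at day 7. Bgn and Prelp were shared by both classes, with ratios of 1.10, 0.735, 1.09 and 0.635 for Bgn and 1.46, 1.51, 1.01 and 0.825 for Prelp, and Ogn lay between 0.890 and 1.68. By the size rule, 5 of 9 members were at least 2-fold higher in fibroblast-like cells at day 0 (29.5% of all genes), 5 of 9 at day 3 (10.8%), 5 of 9 at day 7 (9.76%) and 6 of 9 at day 14 (17.3%). None was at least 2-fold lower on any day, against 17.3%, 14.2%, 12.3% and 11.2% of all genes. The 5 of day 0 were Dcn, Omd, Lum, Fmod and Podn, of which Lum, Fmod and Podn had 0 UMIs in smooth muscle-like cells and were at least 74.7-fold, 11.4-fold and 3.56-fold higher against the floor of 3 UMIs. Dcn, Aspn, Fmod and Podn were among those counted higher on each of days 3, 7 and 14.

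Of the cells kept, 82.2, 7.83, 6.09 and 47.0% were fibroblast-like on days 0, 3, 7 and 14 and held 98.9, 72.6, 75.4 and 94.7% of the family's UMIs. Smooth muscle-like cells held 0.982, 20.7, 12.6 and 4.53%. At day 3 the Bgn UMIs were divided nearly evenly, 48.5% in fibroblast-like and 44.8% in smooth muscle-like cells, whereas 88.8% of Dcn and 93.5% of Fmod UMIs lay in fibroblast-like cells. These shares follow the cell numbers and depths of the libraries as well as the levels per cell.

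Immune cells held little of the family. Monocyte/macrophage-like cells, 529, 933 and 192 on days 3, 7 and 14, held Dcn at 13.2, 53.2 and 84.9 CPM and Bgn at 18.7, 67.1 and 41.4 CPM, against 15.6, 70.4 and 144 CPM and 31.1, 91.9 and 49.7 CPM in T cell-like cells of the same libraries. Endothelial-like cells, 6, 56, 58 and 18 on the 4 days, with 14961 UMIs in all at day 0, held Bgn at 1872 (1244 to 2705), 682 (581 to 796), 993 (923 to 1066) and 878 (633 to 1186) CPM, above T cell-like cells on every day. Their Dcn stood at 66.8, 136, 555 and 543 CPM and their Lum at 66.8, 63.5, 82.4 and 104 CPM, where 66.8 CPM at day 0 is 1 UMI. These cells were shallow, with median UMI counts between 909.5 and 1606, and at day 14 their monocyte/macrophage markers summed to 4451 CPM. On the 4 days their smooth muscle markers summed to 267, 1182, 914 and 752 CPM and their fibroblast markers to 535, 394, 416 and 481 CPM. The part of all these markers in the Bgn, Dcn and Lum values was not tested. Unnamed cells, 445 of them at day 7, held 7.69% of the family's UMIs on that day.

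**Figure D4:**
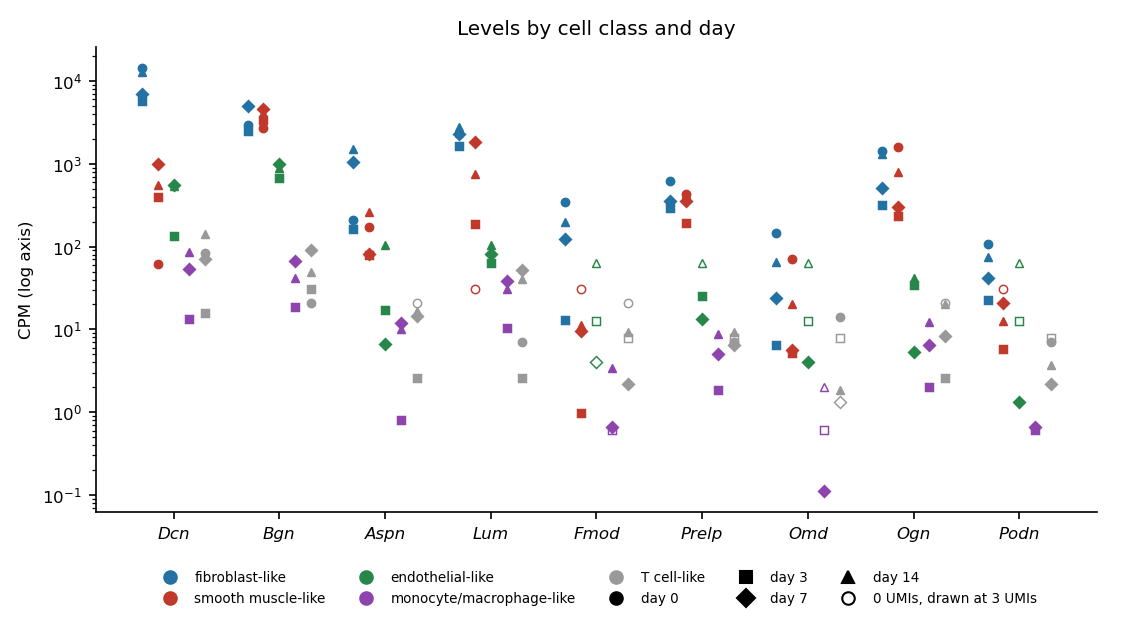
CPM on a log axis (vertical) of each member (horizontal) in 5 cell classes on the 4 days, for class and day sums of at least 10 cells, with open symbols at the level of 3 UMIs where 0 were counted. Dcn, Aspn and Fmod lay highest in fibroblast-like cells on every day, while Bgn, Prelp and Ogn overlapped between fibroblast-like and smooth muscle-like cells, and Bgn of endothelial-like cells lay above that of the immune classes. At day 0 Aspn overlapped as well, at 207 CPM (189 to 227) in fibroblast-like and 173 (101 to 277) in smooth muscle-like cells.

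Within the fibroblast-like cells, sub-clusters differed in their sets of members, a description with no test. Each is named by its leading genes. The sub-cluster led by Rbp4 and Fmo2 (N6), 119 of whose 127 cells came from day 0, held the highest Fmod (492 CPM), Prelp (791) and Omd (162), with low Aspn (210). The one led by Angptl1, C1qtnf3 and Cilp (N0), 224 of 235 cells from day 14, held the highest Aspn (2284) and less Fmod (131). The one led by Gdf10 and Pdgfrl (N2), 154 of 196 cells from day 14, held the highest Lum (3876), with Fmod at 318 and Aspn at 399 CPM. The one led by Saa3, Prg4 and Mmp3 (N3), 84 and 99 of 194 cells from days 3 and 7, held the lowest Dcn (6379), Ogn (365) and Omd (13.7) of the fibroblast-like sub-clusters other than a small cycling one.

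The sub-cluster led by Igfbp5, Sema3c and Pi16 (N7), with 69 cells, had 0 Fmod UMIs, with a floor of 3 UMIs at 2.06 CPM. Its Bgn (942 CPM), Lum (921), Prelp (202) and Podn (20.6) were also the lowest of the fibroblast-like sub-clusters outside the cycling one, while Ogn (1372), Dcn (10558) and Aspn (1322) were not. With all days pooled, N6 and N2, highest in Fmod, had Aspn at 210 and 399 CPM, and N0 and N7, highest in Aspn, had Fmod at 131 and 0 CPM. Single days of other sub-clusters gave other pairs, such as N4 at day 14 with Fmod at 301 and Aspn at 464 CPM and N3 at day 7 with Fmod at 115 and Aspn at 952 CPM.

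The days drew on different sub-clusters. Day 0 fibroblast-like cells fell mostly into N6 and the shallow Rbp4-led N4, day 3 and day 7 cells into N3, and day 14 cells into N0 and N2. Within N3, which had at least 20 cells on both days, day 3 and day 7 differed in Aspn (142 and 952 CPM), Fmod (14.5 and 115), Bgn (2603 and 5135) and Omd (6.49 and 19.4), in the same direction as in all fibroblast-like cells. Within N2, day 7 and day 14 differed in Fmod (143 and 368 CPM), Omd (36.5 and 89.1) and Bgn (4983 and 3097), again as in the whole class, but Aspn was alike (442 and 403). Within N4, day 0 and day 14 differed in Lum (908 and 2053 CPM), Aspn (211 and 464), Ogn (1490 and 753), Dcn (14245 and 10008) and Fmod (115 and 301). Of these, Fmod went against the direction of the whole class, on 24 and 50 UMIs. The other members had overlapping intervals in N4. They were Omd (81.7 and 90.3 CPM), Prelp (428 and 373), Podn (120 and 108) and Bgn (1701 and 2023), each of them lower at day 14 in the whole class.

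**Figure D5:**
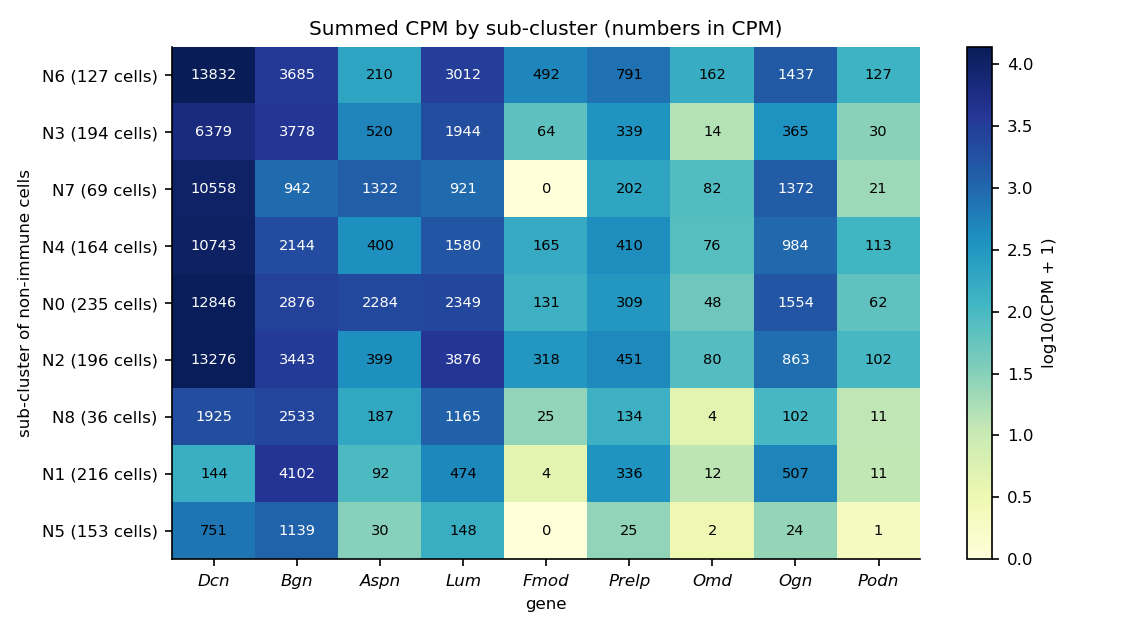
CPM of the 9 members (columns) in 9 sub-clusters of non-immune cells (rows, with their number of cells), coloured by log10(CPM + 1). N6, mostly of day 0, was high in Fmod, Prelp and Omd, N0, mostly of day 14, was highest in Aspn, and N7 held no Fmod UMI.

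Other genes of the same matrix were counted from lists in fibroblast-like cells. Of 15 fibrillar collagens and partners, 8, 13 and 13 were at least 2-fold higher than at day 0 on days 3, 7 and 14 and 1, 1 and 0 lower, with medians of 1.12, 2.07 and 1.61 on the log2 scale. Col3a1 stood at 3562, 19283, 28920 and 26876 CPM and was thus highest at day 7, when Dcn was at 0.492 of its uninjured level. Col5a3, a minor fibril collagen, stood at 10.8, 151, 124 and 145 CPM, whereas Tnxb, which bridges fibrils, stood at 330, 162, 132 and 426 CPM and the fibril-associated Col14a1 at 1224, 752, 979 and 1699 CPM.

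Of the other small leucine-rich proteoglycans and close relatives, 5 of 10 had enough UMIs at day 3, and 2 were at least 2-fold higher and 2 lower (median log2 ratio 0.59). At day 7, 2 of 5 were higher and 1 lower (0.40), and at day 14, 3 of 6 were higher and 0 lower (0.44, or 0.77 with Chad at its bound). Chad, a cartilage matrix protein gene named here after its values were seen, had 0, 0, 2 and 234 UMIs on days 0, 3, 7 and 14 and stood at 26.4 CPM at day 14, at least 19.6-fold above the day 0 floor of 3 UMIs. Ecm2, the gene next to Aspn, stood at 237, 21.2, 75.0 and 155 CPM, in the same order of days as Omd and Ogn and also as Dcn, Fmod and Podn. Tsku, a secreted inhibitor of several signalling ligands, stood at 8.54, 39.6, 25.1 and 11.6 CPM, the cartilage protein gene Epyc at 3.15, 7.08, 7.40 and 18.0 CPM, and Chadl at 7.19, 1.55, 5.28 and 15.4 CPM.

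Of the large and cell surface proteoglycans, 6 of 13 counted were at least 2-fold higher at day 3 and 1 lower, 7 and 1 of 14 at day 7, and 4 and 1 of 14 at day 14, with medians of 0.98, 0.68 and 0.34 (0.98, 0.99 and 0.41 with genes of 0 UMIs set to the floor). Prg4, the joint lubricant, stood at 110, 617, 138 and 14.9 CPM and the syndecan Sdc3 at 12.1, 45.4, 75.2 and 26.5 CPM. The glypicans Gpc3 (53.1, 3.98, 17.7 and 235 CPM) and Gpc6 (93.5, 51.3, 149 and 169 CPM) were lowest at day 3. The 25 counted enzymes that build the sulfated chains showed little movement as a list, with 2 higher and 2 lower at day 3, 3 and 2 at day 7, 1 and 3 at day 14, and medians between -0.02 and 0.10. Csgalnact1, which starts chondroitin chains, had 1 UMI at day 0 and stood at 32.1, 24.1 and 10.9 CPM later. Chsy1, which extends them, stood at 20.2, 48.9, 69.3 and 21.2 CPM, the sulfotransferase genes Ust at 29.7, 14.2, 10.6 and 16.6 CPM and Chst2 at 48.6, 23.9, 33.4 and 23.3 CPM, and Ugdh, which makes a sugar precursor, at 189, 225, 106 and 183 CPM.

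Of the growth factors and receptors that these proteins bind, 3 of 17 counted were at least 2-fold higher and 4 lower at day 3, 4 and 2 of 16 at day 7, and 4 and 2 of 17 at day 14, with medians of 0.031, 0.24 and 0.34. Wisp1, a matricellular protein, stood at 20.7, 107, 222 and 66.5 CPM, the collagen receptor subunit Itga2 at 2.25, 7.96, 12.9 and 9.13 CPM and Igf1 at 564, 473, 1156 and 766 CPM. Bmp4 stood at 121, 35.8, 43.3 and 47.6 CPM and Bmp2 at 17.5, 1.99, 1.48 and 5.18 CPM, both highest before injury. Of the proteases that cut the family and their helpers, 4 of 9, 4 of 9 and 3 of 8 counted were at least 2-fold higher on days 3, 7 and 14, and 0 were lower on any of these days, with medians of 0.72, 0.55 and 0.61 (0.78, 0.77 and 0.61 with genes of 0 UMIs set to the floor). Mmp14 stood at 76.0, 333, 479 and 373 CPM and Mmp3 at 619, 1939, 487 and 511 CPM. Mmp13 had 0 UMIs on days 0 and 14 and stood at 7.74 and 42.7 CPM on days 3 and 7, and Pcolce, an enhancer of procollagen processing, stood at 852, 652, 872 and 966 CPM. The shares of all genes past the same limits are those given above for each day.

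Over the 24 sums of a class and day with at least 20 cells, the genes whose pattern was most like that of each member, among 7420 genes, were found by Pearson's r of log2(CPM + 10). These sums share libraries, and r is given as a description. Nearest were Mmp2, Mfap5 and Pcolce for Dcn (r between 0.957 and 0.962), Timp3, Aebp1 and Fhl1 for Bgn (0.977 to 0.980), Col3a1, Pamr1 and Col16a1 for Aspn (0.951 to 0.954), and Sfrp2, Col1a2 and Col6a1 for Lum (0.965 to 0.987). For Fmod they were Cpxm2, Aldh1a1 and Scn7a (0.946 to 0.963), for Prelp Slit3, Colec12 and Sfrp2 (0.980 to 0.981), and for Omd Pcsk6, Ntrk2 and Igfbp5 (0.955 to 0.974). For Ogn they were Osr1, Itgbl1 and Colec12 (0.978 to 0.981), and for Podn Lama2, Comp and Igfbp5 (0.970 to 0.977). Among the members themselves, Lum and Prelp were the most alike and Bgn and Fmod the least, with r of 0.964 and 0.60. Most of the 24 sums were of immune classes. Over the 9 sums of fibroblast-like, endothelial-like and smooth muscle-like cells alone, 6 of the 27 pairs of a member and a nearest gene were the same. There the nearest genes were Socs1, Cnpy2 and Serping1 for Dcn (0.982 to 0.983), Pmepa1, Itgb5 and Ltbp3 for Bgn (0.959 to 0.976) and Fuca1, Plbd2 and Dpp7 for Fmod (0.966 to 0.980). The most alike members there were Prelp and Ogn (0.961, against 0.892 for Lum and Prelp) and the least alike Bgn and Omd (0.396).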

How the data were processed

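Cells of wire-injured and uninjured mouse carotid arteries were measured by single-cell RNA-sequencing with a droplet 3' kit carrying UMIs, with 1 library for each of days 0, 3, 7 and 14. The count tables deposited by the authors give unscaled UMIs for every gene and barcode, made with Cell Ranger (3.0.2 per the file headers, another version in the methods text). The submitters' notes name GRCh38, which is no mouse build, so no coordinates were taken from the files. The 9 members and all gene lists were chosen with earlier results of these data known.

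Of 6161 barcodes, 453 were removed for having under 200 genes or a mitochondrial share above 20%. Doublet scores came from Scrublet (scanpy 1.11.5), whose automatic call found 17, too few to be credible, so the highest scores were removed at 0.8% per 1000 barcodes (106). A barcode found in 2 libraries was taken as a copy where its UMI count was at least 8 times lower than in the other, and 214 copies were removed. The 5408 cells kept were clustered together (2000 variable genes without the members, listed genes left out, 30 components, 15 neighbours, Leiden resolution 1, leidenalg 0.10.2), and clusters were named from marker lists, with 3 markers needed. Clusters led by cell cycle genes were divided cell by cell, by the class that held 60% or more of a cell's neighbours within the same compartment. Cells without a named class numbered 603, or 3.91, 5.34, 16.5 and 7.00% by day. Non-immune cells were clustered again at resolution 0.5. Class names were rebuilt without the study's annotation, and values can differ from the study's for that reason.

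UMIs were summed over the cells of a class and day and divided by the class total (CPM). Levels carry exact Poisson intervals, ratios exact conditional binomial intervals and shares Clopper-Pearson intervals, all at 95% and all for counting error alone. A ratio was counted with at least 20 UMIs in both sums together and called at 2-fold. Cells are not replicates, so no p-value was made from them. Total UMIs per library were 2672722, 18989081, 27973418 and 13329564, which makes day 0 the least precise. Interval coverage was tested on simulated Poisson counts, which the intervals assume, so that test could not show the effect of counts spread unevenly over cells. All members were named, and from each other list the 2 largest ratios in each direction at day 3 and the most abundant gene. Alternatives were the mean of cell CPM, a stricter filter (500 genes, 10% mitochondrial UMIs), no doublet removal, median-ratio scaling, no cells over 40000 UMIs, thinning to 1000 UMIs, clustering by library, a minimum of 1 UMI and the per-cell gate. Those on shared barcodes, on unnamed clusters and on the Myh11-led sub-cluster, and the removal of copies, were chosen after the data were seen. Promoter windows and gene order came from RefSeq tables (GRCm38.p6), where 7 of the 9 members had a window.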

Additional observations from a re-analysis of the deposited data

Results flagged for a closer look

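From day 7 to day 14, Dcn and Lum moved in opposite directions in the 2 classes of vessel wall cells, and the difference itself was not tested, since there was 1 library per day. In fibroblast-like cells the day 14 level of Dcn was 1.85 times that of day 7, and in smooth muscle-like cells it was 0.55 times. For Lum the corresponding ratios were 1.18 and 0.402. In smooth muscle-like cells 5 cells held 81.9% of the Dcn UMIs and 63.0% of the Lum UMIs at day 7. Without cells of over 40000 UMIs the smooth muscle-like log2 ratios were 0.74 for Dcn and 0.060 for Lum, and in the sub-cluster led by Myh11 alone the Dcn ratio was 0.062, so the opposite direction of Dcn was lost in both settings and that of Lum in the first.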

How the results depend on the processing

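No paired analysis was possible because each time point had 1 library, and leaving out a replicate was not possible for the same reason. Values here are log2 ratios unless counts are named. In fibroblast-like cells the family median at day 3 against day 0 (-1.34) kept its direction under every alternative run. It was -1.28 with barcode copies kept, -1.07 with both copies left out, -0.45 without cells over 40000 UMIs, -1.45 with each library clustered on its own, -1.52 in the per-cell gate, -1.06 with the mean of cell CPM, -1.20 with median-ratio scaling, -1.23 with the stricter filter and -0.66 with thinned cells. At day 7 (-1.02) it was, in the same order of settings but without the mean of cell CPM, -1.05, -0.96, -0.87, -0.97, -1.17, -0.92, -0.99 and -0.97. The median was thus lower at day 7 than at day 3 without the deep cells (-0.87 and -0.45) and with thinned cells (-0.97 and -0.66). At day 14 (-0.16) it was -0.21 in the gate, -0.26 with the mean of cell CPM and -0.069 with median-ratio scaling. From day 7 to day 14 (0.69) it was 0.41 without the deep cells and 0.49 with the mean of cell CPM. Median-ratio scaling subtracted -0.14, -0.11 and -0.09 on days 3, 7 and 14 against day 0, so it raised the log2 ratio of every gene by that much. The count of members at least 2-fold lower became 3 in place of 5 at day 7 without the deep cells, and at day 14 it became 2 in place of 1 with both copies left out or no doublets removed and 0 with thinned cells. In smooth muscle-like cells the median from day 3 to day 14 (1.46) was 1.22 with copies kept, 1.16 without the deep cells, 1.24 in the Myh11-led sub-cluster alone, 1.09 with each library on its own, 1.07 with the mean of cell CPM and 1.75 with a minimum of 1 UMI. The median from day 7 to day 14, 0.25 in the whole class, was negative in the Myh11-led sub-cluster.

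Some single members turned. In fibroblast-like cells at day 3 against day 0, Bgn became 0.20 (mean of cell CPM), 0.15 (no deep cells), 0.18 (thinned) and 0.053 (both copies left out), and Lum 0.14, 0.18 and 0.091 (mean of cell CPM, no deep cells, both copies left out). From day 7 to day 14 Aspn became -0.012 with each library on its own and -0.0059 with no doublets removed. In smooth muscle-like cells from day 3 to day 14, Dcn became -0.56 (copies kept), -0.69 (no doublets removed) and -0.52 (stricter filter), and Aspn -0.69 (no deep cells), -0.66 (sub-cluster alone) and -0.37 (own clustering). From day 7 to day 14 there, Aspn became -0.88, -0.51 and -0.56 in these same settings, Dcn 0.74 and 0.062 in the first and second of them, and Lum 0.060 without the deep cells. Prelp became -0.17 without the deep cells and with own clustering, -0.091 in the sub-cluster alone and -0.20 with both copies left out, and Bgn 0.065 (copies kept), 0.12 (no doublets removed) and 0.32 (stricter filter). The causes were not tested. Depth limits the day 0 values of endothelial-like cells most among the classes described, where 6 cells put the floor of 3 UMIs at 201 CPM, while in smooth muscle-like cells of that day 11 cells and 98227 UMIs put it at 30.5 CPM.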
